A study of Mus musculus with 74 samples.

Results

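Described here are the genes of the cytosolic ribosome, the proteins of the large subunit (Rpl and Rplp symbols) and of the small subunit (Rps symbols and Rpsa). The rule that selects them reads only symbols: it takes the first probe of each symbol and leaves out the ribosomal S6 kinases. The rule found 62 genes, 41 of the large subunit and 21 of the small subunit, each with 1 probe, among the 16463 probes and 13409 gene symbols of the array. Rps27a and Rpl36a, which the rule would have taken, were not among them.

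The series holds 74 mouse arrays with 2 colours in 11 groups. On 50 arrays the test RNA came from DO11.10, a single established T cell hybridoma line, and untreated hybridoma cells filled the other channel. The cells carried a retrovirus: the empty MSCV vector in a set of 12 arrays (MSCV_A) and in a second set of 4 arrays (MSCV_B), HDAC7-VP16 on 10 arrays, MEF2D-VP16 on 4 arrays and Nur77 on 4 arrays. A further 8 arrays held empty-virus cells and 8 arrays held cells with the construct labelled HDAC7 DP, both after 2.5 h of PMA and ionomycin, which together imitate T cell receptor signalling. The remaining 24 arrays held whole thymocytes, with 6 arrays a group. One group compared DO11.10 mice, transgenic for a T cell receptor, with mhc -/- mice, which lack the ligands of positive selection. In the other 3 groups DO11.10 mice had received antigenic peptide 3 h, 6 h or 12 h before harvest, and the partner RNA came from DO11.10 mice without injection. The labels do not say whether arrays of a group came from separate cultures or animals, so every p-value below measures the spread between these arrays, which may be technical. What DP stands for, and the strain and sex of the mice, is not given in the sources used here.

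The cytosolic ribosome holds 1 copy of nearly every ribosomal protein, and the genes are among the most strongly transcribed of a dividing cell. Their mRNAs carry a 5' terminal oligopyrimidine tract, a cytosine at the cap followed by an unbroken run of pyrimidines, through which mTOR signalling sets how well they are translated. A few members have a paralogue used in particular tissues. Rpl22 is one of them: mice without it make ribosomes but lose most of their alpha beta T cells in the thymus, and Rpl22l1 is its paralogue.

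Start-site sequences are shown for the members that the results below turn on, to show which of them carry such a run. Each is the RefSeq window of 30 bases on GRCm38.p6, read 5' to 3' on the gene's strand, with the annotated start site at base 16. Capitals mark the longest run that starts with C, holds at least 5 pyrimidines (C or T) and begins within 5 bases of the start site. The 62 genes lie on 18 chromosomes, and the genes with the most calls span chr4:152324436-152334082 (Rpl22), chr7:109519195-109522369 (Rpl27a), chr17:46773907-46782656 (Rpl7l1) and chr5:146832890-146837032 (Rpl21, with no start site in the table). The windows are those of Rpl15 (chr14:18270972-18271001, minus strand), Rps27 (chr3:90213634-90213663, minus), Rpl14 (chr9:120571502-120571531, plus), Rpl27a (chr7:109519180-109519209, plus), Rpl22l1 (chr3:28805493-28805522, plus), Rps27l, with its upstream start (chr9:66946071-66946100, plus) and its downstream start (chr9:66946398-66946427, plus), Rpl19, with its upstream start (chr11:98026695-98026724, plus) and its downstream start (chr11:98026909-98026938, plus), Rpl7l1 (chr17:46782642-46782671, minus), Rpsa (chr9:120127751-120127780, plus) and Rpl22, with its upstream start (chr4:152324421-152324450, plus) and its downstream start (chr4:152325711-152325740, plus).
Rpl15: gtgggagaaagCCTTCTTCCTTTCCTCTgg
Rps27: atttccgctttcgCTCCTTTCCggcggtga
Rpl14: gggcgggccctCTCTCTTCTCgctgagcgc
Rpl27a: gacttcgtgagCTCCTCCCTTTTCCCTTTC
Rpl22l1: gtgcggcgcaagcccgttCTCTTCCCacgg
Rps27l, upstream start: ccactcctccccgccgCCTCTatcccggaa
Rps27l, downstream start: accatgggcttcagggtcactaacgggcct
Rpl19, upstream start: tgaccaaacgCCCTCactgcgcatgtgcgc
Rpl19, downstream start: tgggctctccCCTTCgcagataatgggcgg
Rpl7l1: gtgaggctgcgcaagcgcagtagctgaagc
Rpsa: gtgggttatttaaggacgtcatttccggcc
Rpl22, upstream start: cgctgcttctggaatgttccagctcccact
Rpl22, downstream start: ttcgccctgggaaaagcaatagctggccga

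Of the 62 genes, 53 had a start site in the RefSeq table, with 62 sites in all. A run near the start stood at 25 of these 62 sites (40.3%), against 18.3% of all 32851 start sites and 22.7% of the 75 sites of mitochondrial ribosomal protein genes. Counting only sites with a C at the start base and a run of that length from there, the share was 16.1% (10 sites), against 2.51% of all sites and 0.0% of the mitochondrial ones. Among the sequences above, Rpl15, Rps27 and Rpl14 had such a run from a C at the start base, while Rpl7l1, Rpsa, the downstream Rps27l window and both Rpl22 windows had none that begins within 5 bases of the start site. This is a count of letters in one annotated window, and a gene without a match may start elsewhere.

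The values are log ratios of the test RNA over its partner, so they give a change and not a level, and more RNA per cell cannot be told apart from more cells of a type. The direction is likely rather than stated. Nr4a1, which encodes Nur77, averaged 4.50 ± 1.21 (SD, n = 4) on the Nur77 arrays and 4.30 ± 0.83 (SD, n = 8) on the stimulated empty-virus arrays. Cd5 and B2m averaged 3.77 ± 0.74 and 3.26 ± 0.27 (SD, n = 6) on the DO11.10 over mhc -/- arrays. For replicates 3 and 9 of MSCV_A the direction was unsettled, so counts that use these 2 arrays are also given with their sign turned. The median member stood at -0.06 on replicate 3 (Cy5) and at 0.16 on replicate 9 (Cy3), against averages of 0.26 in Cy5 and -0.09 in Cy3. Nr4a1, as deposited, was above 0 on 0 of the 12 MSCV_A arrays. Which direction holds was not tested. Replicate 1 of HDAC7-VP16 has a title that names HDAC7-VP16 and a source name that names the empty virus. Between arrays of opposite dye, the median correlation over the 62 members was -0.402 in MSCV_A, -0.555 in HDAC7-VP16, -0.397 in MSCV_B and -0.35 in Nur77, against 0.406 in MEF2D-VP16 and 0.695 in the DO11.10 over mhc -/- group. Over all probes it was -0.401 in MSCV_A, -0.475 in HDAC7-VP16 and -0.241 in MSCV_B, so there it was negative beyond the members too. All probes stood at 0.402 in Nur77, 0.487 in MEF2D-VP16 and 0.854 in the DO11.10 over mhc -/- group. In the stimulated and peptide groups the members stood between -0.071 and 0.084, and all probes between 0.146 and 0.382. These correlations are a description over genes of one array, which are not independent.

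Most members did not have values of their own on many arrays. On the same array, different probes held 1 and the same deposited value, to all 3 decimals, and 45 of the 62 members (72.6%) fell into 27 groups of probes that did this on at least 10 arrays, against 1.658% of all probes. Rps4x and Rps24 had the same value on 63 of 74 arrays, Rps15 and Rps16 on 57, Rplp0 and Rps13 on 52, and both Rps2 with Rpsa and Rpl28 with Rplp1 on 51. Of the 4588 values of the members, 1982 (43.2%) were shared in this way. The same groups held probes of Actb, Eef1a1, Eef2, Tpt1, Ppia, Tuba1b, Ncl and Fau, which are also strongly expressed in most cells, with Fau encoding a further small subunit protein. Other probes in these groups are those of Hoxb1, Syn1, Cyp2c39 and Actc1, which are known from tissues other than T cells. Only groups alike on at least 10 arrays were counted as sharing, so a single equal value, such as that of Rpl22 and Rpl31 on 1 array at 3 h, was not. Why values are shared was not tested, and members that share a value are not separate evidence. The other 17 members (Rplp2, Rpl3l, Rpl5, Rpl7l1, Rpl11, Rpl13, Rpl14, Rpl15, Rpl21, Rpl22, Rpl22l1, Rpl27a, Rpl37, Rpl39l, Rps4l, Rps18 and Rps20) were in no such group and are read first below.

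Part of the spread followed the dye. In MSCV_A the median member stood at 0.26 on average where the test RNA was Cy5 and at -0.09 where it was Cy3, and in HDAC7-VP16 at 0.33 and -0.32. Within HDAC7-VP16 the members that share values stood at 0.46 and -0.49 in those orientations, and the 17 others at -0.14 and 0.04. The dye term of the fit reached adjusted p under 0.05 in limma for 39 members in the HDAC7-VP16 comparison, 30 of the 45 that share values and 9 of the 17 others, where 38.7% of all probes did. Among the 17, the splits had both signs: on the HDAC7-VP16 arrays Rpl27a averaged -0.75 in Cy5 and 0.52 in Cy3, and Rpl37 averaged 1.32 and -0.69, so their median near 0 hides splits of opposite sign. Every group held both orientations in equal number, so the fits below carry a term for the dye.

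**Figure D1:**
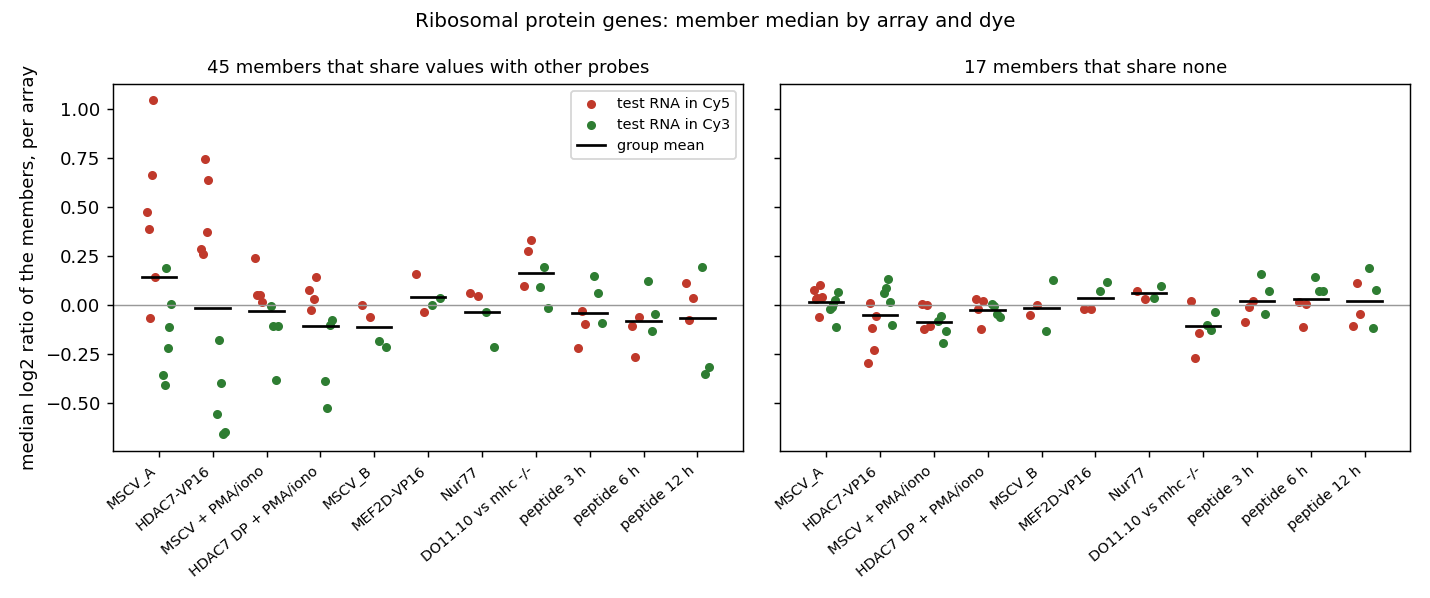
Median log2 ratio of the members on each array (vertical axis) by group (horizontal axis), for the 45 members that share values with other probes (left) and the 17 in no such group (right). Points are arrays, red with the test RNA in Cy5 and green in Cy3, and lines are group means. In MSCV_A and HDAC7-VP16 the left panel splits by dye, and the right panel stays closer to 0.

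Over all 11 comparisons, 26 members (41.9%) passed the test in at least 1 and 36 in none, where 49.2% of all probes passed in at least 1, so the members' share was below that of all probes. Of the 26, 19 passed in the DO11.10 over mhc -/- comparison alone. Rpl22 passed in 4 comparisons, Rpl27a and Rpl7l1 in 3 each, and Rpl21 in 2. All 4 are among the 17 genes outside the groups of shared values. The test was limma with Benjamini-Hochberg adjustment over all 16463 probes, and a gene is said to have risen or fallen where adjusted p was under 0.05.

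**Figure D2:**
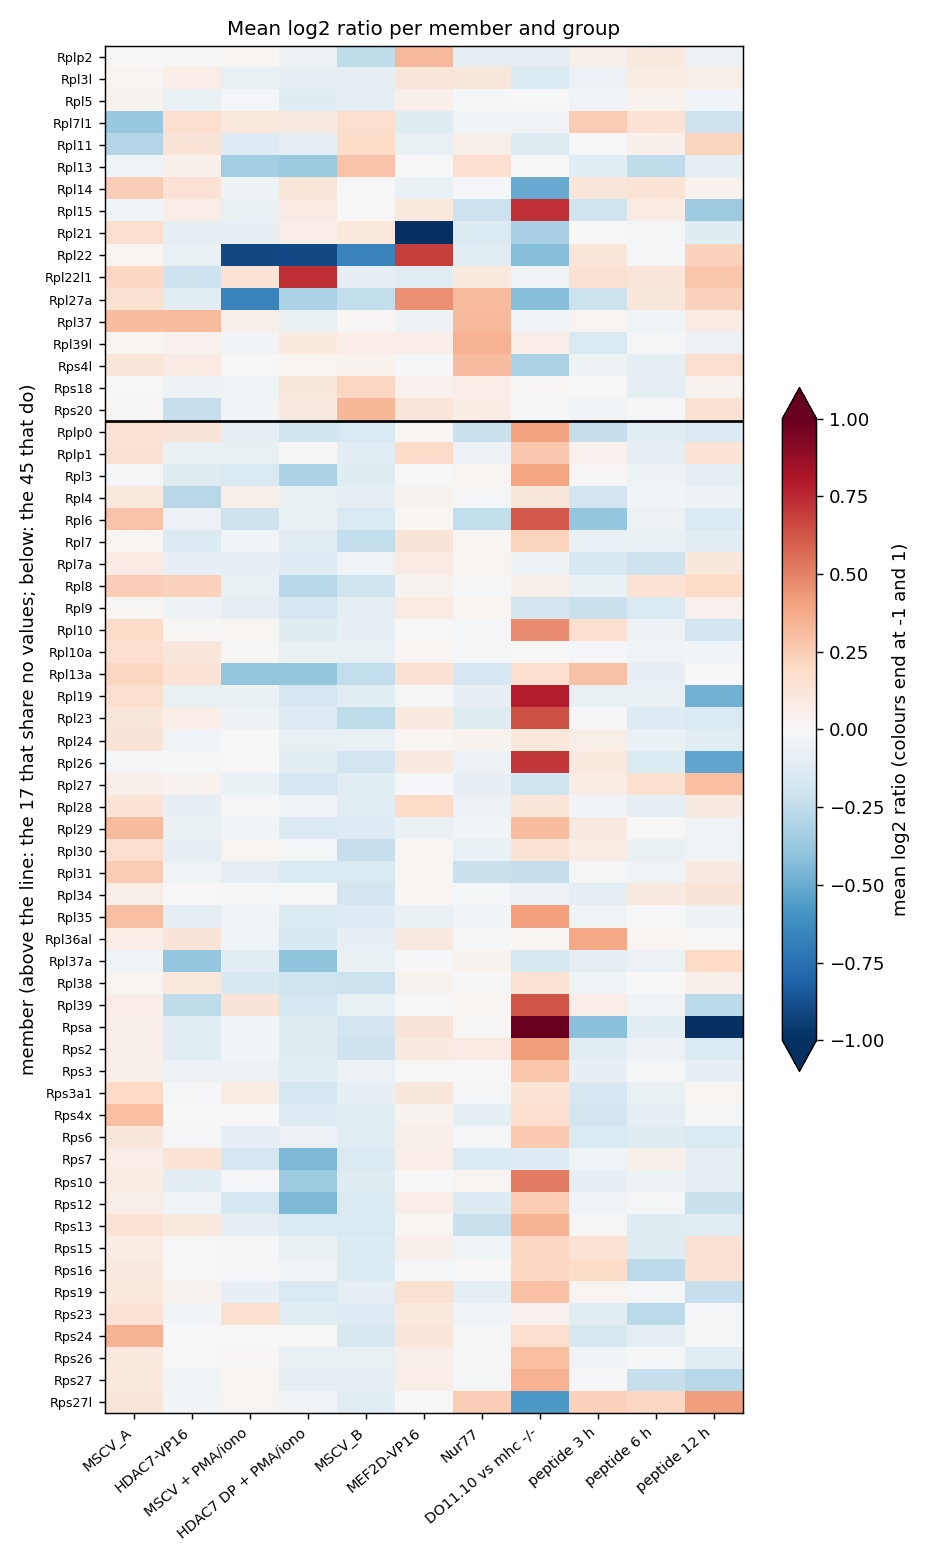
Mean log2 ratio (colour, ending at -1 and 1) of each of the 62 members (vertical axis) in each of the 11 groups (horizontal axis). The 17 members above the line share no values with other probes. Rpl22 is blue in both stimulated groups and in MSCV_B and red in MEF2D-VP16, Rpl21 is blue in MEF2D-VP16, and Rpsa has the strongest red and blue, in the DO11.10 over mhc -/- and 12 h groups.

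The empty virus alone was set against untreated cells in both sets. Of the 62 members, 0 rose and 1 fell in MSCV_A, where 0.626% of all probes rose and 1.35% fell, and 1 rose and 1 fell in MSCV_B, where 2.71% rose and 3.01% fell. The median member stood at 0.10 in MSCV_A and at -0.11 in MSCV_B, against 0.01 for the median probe in both.
Rpl7l1, a relative of the large subunit protein Rpl7, was below 0 on 12 of 12 MSCV_A arrays, from -0.79 to -0.11 with a median of -0.37. It fell by 0.38 on the log2 scale (SE 0.06, limma adjusted p = 0.00406), a fold of 1.30. With the sign of the 2 unsettled arrays turned it was -0.22 (limma adjusted p = 0.558), and 0 members were called.
Rpl22 stood at -0.76, -0.58, -0.98 and -0.37 on the MSCV_B arrays, all below 0, while on the 12 MSCV_A arrays it ran from -0.54 to 0.57 around a median of 0.06. In MSCV_B it fell by 0.67 (SE 0.11, limma adjusted p = 0.0156), a fold of 1.59. The ranges of both sets overlap and their difference was not tested, but the low Rpl22 of MSCV_B enters each comparison with MSCV_B below. Rps20, of the small subunit head, stood at 0.10, 0.17, 0.59 and 0.46 in MSCV_B and rose by 0.33 (SE 0.08, limma adjusted p = 0.0463), a call lost in 7 of 10 alternatives. Without replicate 1 or without replicate 3 of MSCV_B 0 members were called, and without replicate 2 or 4 it was 1.

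HDAC7-VP16 joins HDAC7, a class IIa deacetylase, to the VP16 activation domain. Against MSCV_A, 1 of the 62 members rose and 0 fell, where 1.42% of all probes rose and 1.29% fell. The median member stood at -0.10 and the median probe at -0.01, and 3 members had an unadjusted p under 0.05.
The gene that rose was Rpl7l1, from -0.57 to 0.91 with a median of 0.21 on the 10 HDAC7-VP16 arrays. These overlap the MSCV_A values, and the change was 0.54 (SE 0.12, limma adjusted p = 0.0119), a fold of 1.46. The control is the MSCV_A set in which Rpl7l1 was low: against untreated cells it stood at 0.17 and was not called, nor was any other member. With the 2 unsettled arrays turned it stood at 0.38 (limma adjusted p = 0.216) and 0 members were called, while without replicate 1 of HDAC7-VP16 the count was again 1.

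After PMA and ionomycin the member with the largest change was Rpl22. Against MSCV_A, 1 member rose and 4 fell, where 6.07% of all probes rose and 6.43% fell, so the count that fell is near the background. The median member stood at -0.13 and the median probe at -0.01.
Rpl22 was below 0 on 8 of 8 stimulated empty-virus arrays, from -1.50 to -0.45 with a median of -0.83. The lowest MSCV_A array stood at -0.54, so the groups overlap slightly. Rpl22 fell by 0.94 (SE 0.13, limma adjusted p = 4.17e-05), a fold of 1.92, and kept its call in 14 of 14 alternatives.
Within the slide series numbered 14 it averaged -1.03 ± 0.36 (SD, n = 4) after stimulation and 0.05 ± 0.19 (SD, n = 6) with the empty virus alone. Within the series numbered 15 it averaged -0.80 ± 0.34 (SD, n = 4) and 0.01 ± 0.55 (SD, n = 6). The stimulated arrays were all below the empty-virus arrays in series 14, and the ranges overlapped in series 15 (-1.21 to -0.45 and -0.54 to 0.57).
Rpl27a, also of the large subunit, was below 0 on 8 of 8 stimulated arrays, from -1.01 to -0.28 with a median of -0.60. The MSCV_A arrays ran from -1.31 to 1.24, so they overlap the whole stimulated range. Rpl27a fell by 0.82 (SE 0.23, limma adjusted p = 0.0211), a call lost in 2 of 14 alternatives, quantile normalization (limma adjusted p = 0.0612) and slide series 14 alone (limma adjusted p = 0.489).
Rpl13a, which also serves in a complex that silences inflammatory mRNAs, fell by 0.61 (SE 0.18, limma adjusted p = 0.0247), and Rps13 fell by 0.24 (SE 0.07, limma adjusted p = 0.0323). Both share values with other probes, Rpl13a on 11 and Rps13 on 16 of the 20 arrays compared. Rpl7l1 rose by 0.48 (SE 0.10, limma adjusted p = 0.00262), again against MSCV_A arrays in which it was low.
With the sign of the 2 unsettled arrays turned, only Rpl22 (-0.98, limma adjusted p = 6.77e-06) and Rpl27a (-0.74, limma adjusted p = 0.0139) of these 5 were called. Against untreated cells, where 7.62% of all probes rose and 8.48% fell, 0 members rose and 3 fell: Rpl22 (-0.91), Rpl27a (-0.67) and Rpl13 (-0.34).

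The stimulated HDAC7 DP cells were set against the stimulated empty-virus cells, to show what the construct adds under stimulation. No member was called, 0 rising and 0 falling in limma, where 0.522% of all probes rose and 1.12% fell, and 3 members had an unadjusted p under 0.05. Rpl22 was low in both stimulated groups. With HDAC7 DP it was below 0 on 8 of 8 arrays, from -1.56 to -0.41 with a median of -0.92, and this range covers that of the stimulated empty-virus arrays.
Its paralogue Rpl22l1 was above 0 on 8 of 8 HDAC7 DP arrays, from 0.12 to 1.47 with a median of 0.79. On the stimulated empty-virus arrays it ran from -0.40 to 0.93 with a median of -0.05, so the groups overlap. The difference was 0.61 (SE 0.21) and missed the threshold (limma adjusted p = 0.19).
Rpl27a stood between -0.70 and 0.06 with a median of -0.35 on the HDAC7 DP arrays, and its difference of 0.35 from the stimulated empty-virus arrays was not called (limma adjusted p = 0.104). Against untreated cells, where 8.96% of all probes rose and 10.7% fell, 1 member rose and 5 fell. Rpl22l1 rose by 0.74 (SE 0.11, limma adjusted p = 0.00123). Rpl22 (-0.91), Rpl13 (-0.37) and Rpl27a (-0.32) fell, as did Rps7 and Rps12, which share one value of -0.45.

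MEF2D-VP16, the transcription factor MEF2D joined to VP16, changed 3 large subunit genes. Against MSCV_B, 2 members rose and 1 fell, where 6.4% of all probes rose and 6.16% fell. The median member stood at 0.16 and the median probe at -0.01. All 3 genes are among the 17 that share no values.
Rpl22 stood at 1.03, 0.82, 0.56 and 0.36 on the MEF2D-VP16 arrays, all above every MSCV_B array. It rose by 1.36 (SE 0.18, limma adjusted p = 0.00134), a fold of 2.57, and kept its call in 16 of 16 alternatives. Because Rpl22 was low in MSCV_B, the rise was smaller against untreated cells, 0.69 (SE 0.12, limma adjusted p = 0.00847).
Rpl21 stood at -1.18, -0.96, -1.16 and -0.87, while the MSCV_B arrays ran from -0.32 to 0.49. The groups do not overlap. It fell by 1.15 (SE 0.13, limma adjusted p = 0.000535), a fold of 2.22, kept its call in 16 of 16 alternatives, and stood at -1.04 against untreated cells.
Rpl27a stood at 0.30, 0.68, 0.47 and 0.38, above the MSCV_B arrays, which ran from -0.70 to 0.10. It rose by 0.70 (SE 0.17, limma adjusted p = 0.022), a call lost in 6 of 16 alternatives, among them without replicate 2 or 3 of MEF2D-VP16 or replicate 1 or 3 of MSCV_B. Against untreated cells, where 8.92% of all probes rose and 9.37% fell, the same 3 genes were called, 2 rising and 1 falling.

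Nur77, the orphan nuclear receptor encoded by Nr4a1, gave no call among the members against MSCV_B: 0 rose and 0 fell in limma, where 3.62% of all probes rose and 3.29% fell, and 2 members had an unadjusted p under 0.05. Rpl22 stood at 0.05, -0.22, 0.15 and -0.41. It lay on both sides of 0, and its lowest array was below the highest MSCV_B array, so the groups overlap. Against untreated cells, where 6.32% of all probes rose and 6.85% fell, 2 members rose, Rpl39l (0.35) and Rpl27a (0.32, limma adjusted p = 0.0477). Leaving out replicate 4 of Nur77, or replicate 2 or 4 of MSCV_B, gave 1 call against MSCV_B.

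**Figure D3:**
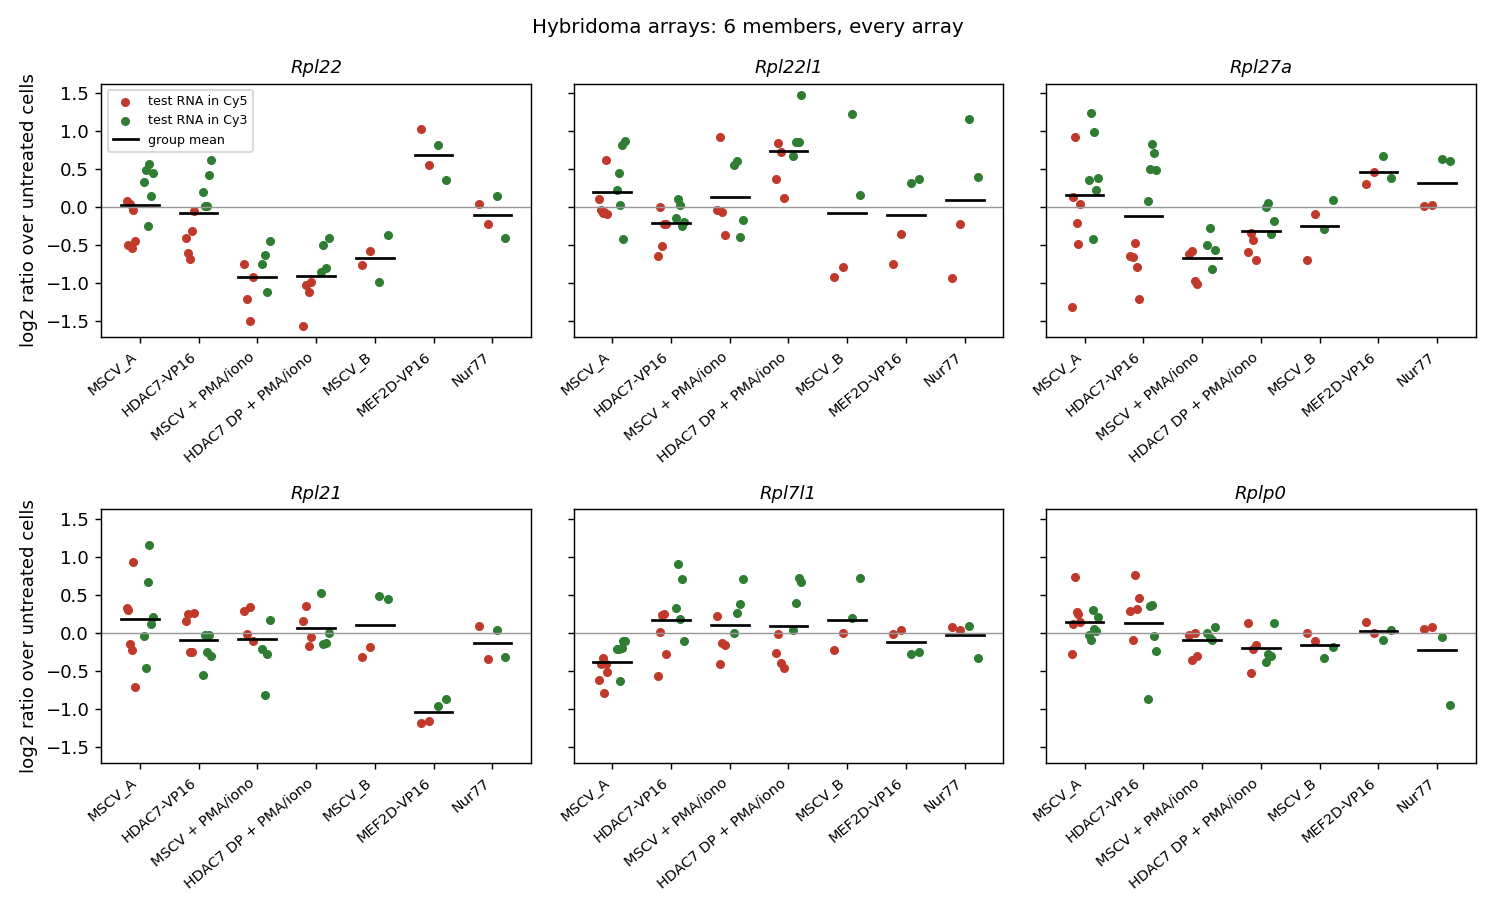
Log2 ratio over untreated cells (vertical axis) of Rpl22, Rpl22l1, Rpl27a, Rpl21, Rpl7l1 and Rplp0 on every hybridoma array, by group (horizontal axis). Points are arrays, red with the test RNA in Cy5 and green in Cy3, and lines are group means. Rpl22 lies below 0 on 8 of 8 arrays of each stimulated group and above 0 on 4 of 4 MEF2D-VP16 arrays, Rpl21 is low in MEF2D-VP16, and the group means of Rplp0 lie between -0.22 and 0.14.

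Thymocytes of DO11.10 mice differed from mhc -/- thymocytes in 22 members, the most of any comparison: 16 rose and 6 fell. In all, 20.5% of probes rose and 15.8% fell, so the share of members called, both directions together, was near that of all probes. The median member stood at 0.13 and the median probe at -0.01. Of the 41 large subunit genes 10 rose and 4 fell (median 0.05), and of the 21 small subunit genes 6 rose and 2 fell (median 0.21). By sharing, 15 rose and 1 fell among the 45 members in groups of shared values, while 1 rose and 5 fell among the 17 others. These groups were formed over all 74 arrays, and sharing was rarer on most arrays of this comparison. A shared value was held by 8, 4, 9 and 8 of the 62 members on slides 1 to 4, and by 15 and 37 on slides 17 and 18.

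Rpsa, the small subunit protein that also acts as the laminin receptor, stood far apart from every other member. On slides 1 to 4 it stood at 4.11, 4.78, 4.89 and 5.19, and on slides 17 and 18 at 1.82 and 1.00. The slide sets do not overlap, and all 6 arrays lie above 0. It rose by 3.63 (SE 0.59, limma adjusted p = 0.00224), a fold of 12.4. It shared its value with no probe of its group on these arrays, whereas on the hybridoma arrays it mostly did.
Rpl19 and Rpl15, both of the large subunit, followed. Rpl19 ran from 0.07 to 1.33 with a median of 0.90 and rose by 0.79 (SE 0.11, limma adjusted p = 0.000854). Rpl15, the only riser outside the groups of shared values, ran from 0.00 to 1.48 with a median of 0.73. It rose by 0.73 (SE 0.15, limma adjusted p = 0.00658). Both lay above 0 on all 6 arrays.
Rpl26 rose by 0.71 (SE 0.16, limma adjusted p = 0.00998). The other 12 rose by between 0.22 (Rpl7) and 0.64 (Rpl23), with Rps10 at 0.51 and Rpl10, a protein fitted late into the large subunit, at 0.47. Rpl15, Rpsa and Rpl19 kept their calls in 12 of 12 alternatives, while Rpl10 lost its call in 7 of 12 and Rpl39 and Rpl6 lost theirs in 5 of 12 each.

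The members that fell were, but for Rps27l, outside the groups of shared values, and Rps27l shared its value on 0 thymocyte arrays. Rps27l, the p53-induced paralogue of Rps27, was below 0 on 6 of 6 arrays, from -0.83 to -0.29 with a median of -0.56. It fell by 0.57 (SE 0.05, limma adjusted p = 6.56e-05), a fold of 1.49. Rps27 itself rose by 0.35 (SE 0.06, limma adjusted p = 0.00314), but on all 6 arrays its value was shared with other probes, so this paralogue pair moved apart only as far as the shared value stands for Rps27.
Rpl14 ran below 0 on all arrays and fell by 0.51 (SE 0.05, limma adjusted p = 0.000217). Rpl22 was below 0 on 6 of 6 arrays, from -0.62 to -0.22 with a median of -0.43, and fell by 0.42 (SE 0.07, limma adjusted p = 0.00219). Rpl27a likewise was below 0 on 6 of 6 arrays and fell by 0.43 (SE 0.06, limma adjusted p = 0.000864).
The other 2 that fell were Rpl21 (-0.32) and Rps4l (-0.32), the autosomal relative of the X-linked Rps4x. Rps27l, Rpl14 and Rpl22 kept their calls in 12 of 12 alternatives. Unlike Rpsa, they had like values on both slide sets: Rps27l averaged -0.58 on slides 1 to 4 and -0.56 on slides 17 and 18, and Rpl22 -0.41 and -0.44.

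After injection of antigenic peptide no member was called at any time in limma. At 3 h 0 members rose and 0 fell, where 1.49% of all probes rose and 1.21% fell. At 6 h it was 0 and 0, where 2.03% rose and 2.54% fell, and at 12 h 0 and 0, where 1.66% rose and 1.72% fell. Members with an unadjusted p under 0.05 numbered 3, 5 and 4. The member median stood at -0.03, -0.05 and -0.03. A limma F test across the 3 times called 0 members, where it called 4.09% of all probes.

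The 12 h arrays did not form one group. Rpsa stood at 0.53 and 0.15 on the slides numbered 13-7 and 13-8, and at -3.09, -3.24, -4.0 and -3.64 on slides 13 to 16. Over all probes, slides 13 to 16 correlated with each other at 0.67 to 0.85 and with the other 2 slides at 0.09 to 0.27, and those 2 slides correlated with each other at 0.1, a description within arrays. The titles give the slide numbers 13-5 to 13-8 at 2 different times each.
On slides 13 to 16 alone, where 8.47% of all probes rose and 16.2% fell, 3 members rose and 15 fell. Rpsa fell by 3.49 (SE 0.09, limma adjusted p = 8.26e-06). Rpl26 (-0.78), Rpl19 (-0.77), Rpl15 (-0.69), Rps27 (-0.54) and Rpl21 (-0.49) were the next lowest.
The risers on those slides were Rps27l (0.65), Rpl22l1 (0.45) and Rpl22 (0.43, limma adjusted p = 0.00442). Rpl22 lay between 0.35 and 0.53 there, and at -0.49 and 0.17 on the other 2 slides. Those 2 were left out because their slide numbers recur at another time, and 0 members are called when all 6 arrays are used.

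**Figure D4:**
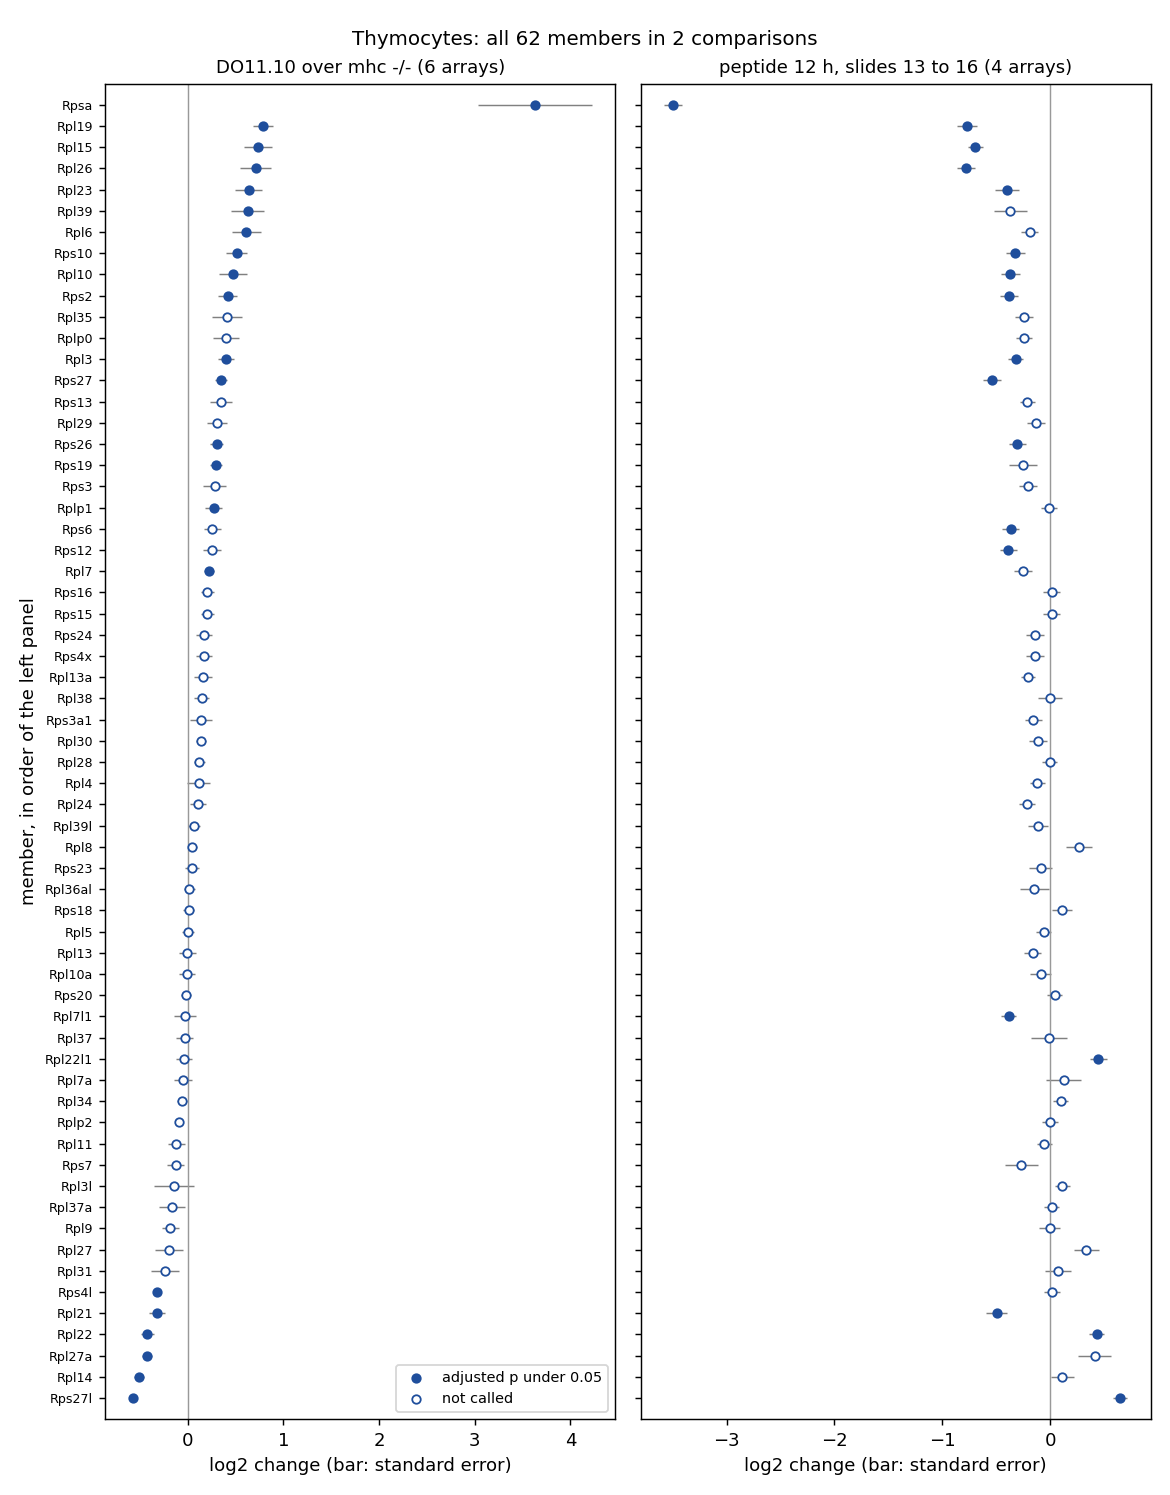
Log2 change (horizontal axis, bar: standard error) of all 62 members (vertical axis, one order in both panels) in DO11.10 over mhc -/- thymocytes (left, 6 arrays) and at 12 h after peptide on slides 13 to 16 (right, 4 arrays). Filled points have a limma adjusted p under 0.05. Rpsa is the highest at left, 3.63, and the lowest at right, -3.49. RNA of untreated DO11.10 thymocytes is the test RNA at left and the partner RNA at right.

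The genes whose values over the 24 thymocyte arrays were most like those of Rpsa, chosen after the values were seen by Pearson's r, were Vav1, Map1lc3b, Rpp25l, Laptm5, Grap, Eif4a1, Usf2 and Rabac1, each at 0.98. None is a ribosomal protein gene. RNA of untreated DO11.10 thymocytes was the test RNA in the DO11.10 over mhc -/- group and the partner RNA at every peptide time. A trait of that RNA would thus appear with opposite sign in these groups, so they are not separate evidence. Whether opposite values came from that RNA was not tested, and some slide numbers recur between peptide times. Vav1, a signalling protein of blood cells, averaged 3.02 on slides 1 to 4 and 1.39 on slides 17 and 18 of the DO11.10 over mhc -/- group, and -2.26 on slides 13 to 16 and 0.25 on the other 2 slides at 12 h. Among members, Rpl19 (0.91) and Rpl15 (0.85) were most alike, and Rps27l (-0.80), Rpl22 (-0.69) and Rpl14 (-0.69) ran the other way.

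Some markers of other cells moved in these thymocyte groups. Alas2, the only erythroid marker measured, stood between 1.60 and 2.35 on the 6 DO11.10 over mhc -/- arrays, between -1.94 and -0.82 at 3 h, and between -2.24 and 0.71 at 12 h, where it averaged -1.95 on slides 13 to 16. The mean of 8 thymic epithelium markers ran from 0.03 to 0.65 in the DO11.10 over mhc -/- group, with 4 rising and 2 falling, and from -0.75 to -0.45 at 3 h, with 0 rising and 3 falling where 1.49% of all probes rose and 1.21% fell. The mean of 6 T cell markers stayed between -0.11 and 0.13 in the DO11.10 over mhc -/- group and between -0.41 and -0.17 at 12 h. In the DO11.10 over mhc -/- comparison 2 of the 6 T cell markers rose and 1 fell. Of 4 B cell markers 3 rose and 1 fell there, but their mean ran from -0.08 to 0.17 with a median of -0.04. Of 3 macrophage and dendritic cell markers 0 rose and 0 fell, and their mean ran from -0.08 to 0.09. As for the epithelium counts, the background there is 20.5% of all probes rising and 15.8% falling. At 6 h 0 of these 3 markers rose and 2 fell, where 2.03% of all probes rose and 2.54% fell. The part of all these markers in the changes of the members was not tested.

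By role, of the stalk proteins Rplp0, Rplp1 and Rplp2, which bind the elongation factors, only Rplp1 was called, in 1 comparison. Rplp1 rose in DO11.10 over mhc -/- thymocytes by 0.27 (SE 0.09, limma adjusted p = 0.0418), a call lost in 8 of 12 alternatives. Rplp0 stood at 0.40 there (limma adjusted p = 0.0562) and between -0.24 and 0.14 as a group mean elsewhere. Rplp2, the stalk gene that shares no values, had its largest change with MEF2D-VP16, 0.58 (SE 0.19, limma adjusted p = 0.0821).
Rpl5 and Rpl11, which bind Mdm2 when ribosome assembly fails, were called in none of the 11 comparisons. Rpl5 group means lay between -0.12 and 0.05. Rpl11 ran from -2.08 to 1.11 over the MSCV_A arrays alone, so changes of the size of its group means, -0.29 to 0.22, could not be seen there.
Rps6, the substrate of the S6 kinases, stood at 0.26 in DO11.10 over mhc -/- thymocytes (limma adjusted p = 0.0544) and was called in none of the 11 comparisons, though it was among the genes that fell on slides 13 to 16 at 12 h (-0.37, limma adjusted p = 0.0148). Rps19, the gene most often mutated in Diamond-Blackfan anaemia, rose in DO11.10 over mhc -/- thymocytes by 0.30 (SE 0.07, limma adjusted p = 0.00988).
The other paralogues are given for DO11.10 over mhc -/- thymocytes. Rpl3 rose by 0.40 (limma adjusted p = 0.00691) and the muscle form Rpl3l stood at -0.14 (limma adjusted p = 0.683). Rpl39 rose by 0.63 (limma adjusted p = 0.0256) and Rpl39l, known from testis, stood at 0.06 (limma adjusted p = 0.489). Rpl7 rose by 0.22 (limma adjusted p = 0.012) and Rpl7l1 stood at -0.03. Rpl36al was called in none of the 11 comparisons. Differences within these pairs were not tested.

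Genes that build or assist the ribosome were described by counts, on lists chosen with earlier results known. With MEF2D-VP16, 0 of 22 ribosome biogenesis genes rose and 12 fell, with a median of -1.03, where 6.4% of all probes rose and 6.16% fell, beside 2 rising and 1 falling of the 62 ribosomal protein genes. Ddx21, a helicase of rRNA processing, stood at -1.53, Nolc1 at -1.49, Wdr12 at -1.41, Rrs1 at -1.40, Bop1 at -1.35 and Polr1b, a subunit of RNA polymerase I, at -1.28. Of the 70 mitochondrial ribosomal protein genes, which serve the separate ribosome of that organelle, 0 rose and 17 fell, with a median of -0.33.
After PMA and ionomycin 8 of the biogenesis genes rose and 1 fell, with Ddx21 at 1.17 and Polr1b at 0.82, where 6.07% of all probes rose and 6.43% fell. In MSCV_B 7 rose and 0 fell, where 2.71% of all probes rose and 3.01% fell. With Nur77 0 rose and 3 fell, where 3.62% rose and 3.29% fell. The direction of this list was thus opposite in MSCV_B and in both comparisons that use MSCV_B as control.
In DO11.10 over mhc -/- thymocytes 11 biogenesis genes rose and 3 fell, 15 mitochondrial ribosomal protein genes rose and 33 fell, and of 43 translation factors 13 rose and 7 fell. Of 20 genes outside the ribosome whose mRNAs carry the same 5' tract, 14 of which share values, 6 rose and 3 fell. Of 11 genes of mTOR control of translation, 5 rose and 3 fell. These counts stand beside 20.5% of all probes that rose and 15.8% that fell, and for the translation factors and these 20 genes the shares that fell are near that background.

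**Figure D5:**
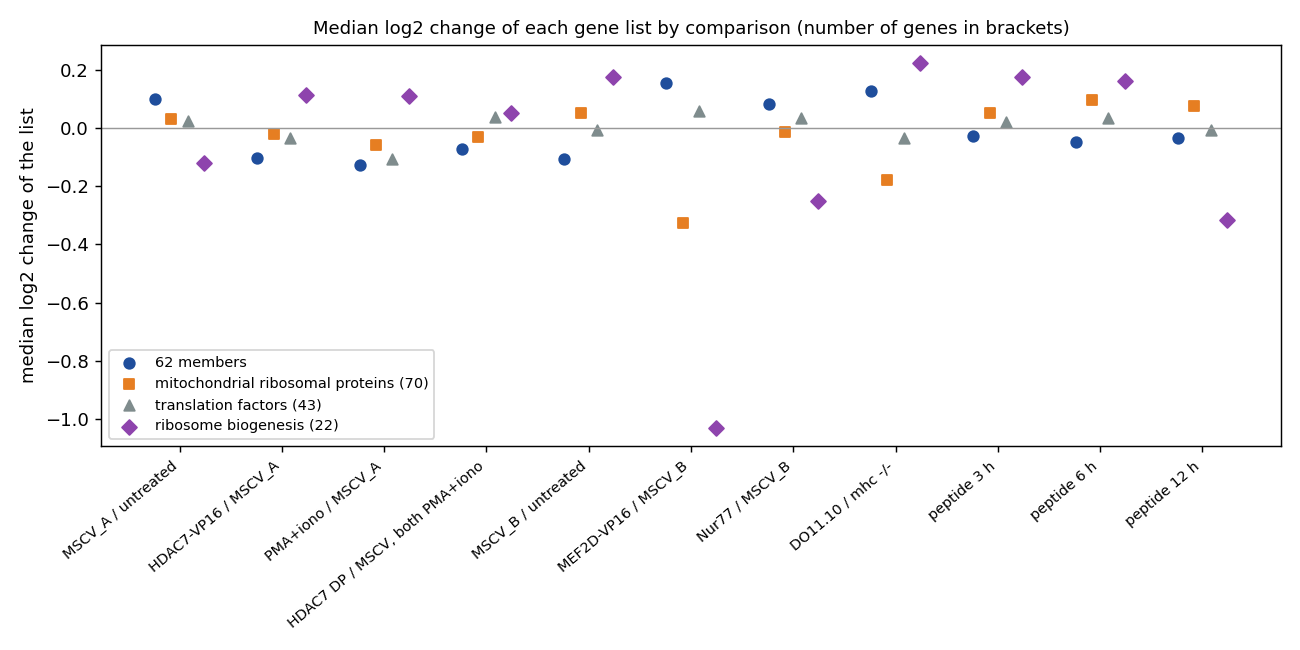
Median log2 change (vertical axis) of the 62 ribosomal protein genes and of 3 other lists, by comparison (horizontal axis). The ribosome biogenesis genes stand at -1.03 with MEF2D-VP16 and the mitochondrial ribosomal protein genes at -0.33, while the ribosomal protein genes stand at 0.16.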

How the data were processed

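The deposited values are log ratios of both channels of each array, taken as log2, a base that the sources used here do not give. The scanner, background correction, normalization, direction and handling of missing values are likewise not stated in those sources. Total RNA was, per the labels, copied with aminoallyl-dUTP and coupled to Cy3 or Cy5. Cy3 is named for either channel in the labels, so the dye was read from the array titles. The source name of HDAC7-VP16 replicate 1 names the empty virus, and it was kept by its title. Spot intensities and saturation were not used here, so no signal over background is given, and the number of arrays limits the precision.

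There were 0 missing values. Each array was centred on its median (-0.021 to 0.023 before). limma 3.58.1 in R 4.3.3 was fitted on the arrays of each comparison with a dye term (F test over the 3 peptide times), and p-values were adjusted by Benjamini-Hochberg over 16463 probes. Symbols came from the platform annotation. For 61 of 62 members the Entrez ID was in the RefSeq table. Probe sequences were not aligned again, and ribosomal protein genes have many near-identical pseudogene copies, which a probe may also bind. On simulated data for 16463 genes, a log2 change of 0.5 was recovered for 53% of genes with HDAC7-VP16, 4% with MEF2D-VP16 and 75% for DO11.10 over mhc -/-, and a change of 1 for 88%, 57% and 98%. The simulated noise was independent and had the spread around group means, dye effects included. The fits take the dye out by a term, so these rates need not hold for them.

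The members and lists were chosen with earlier results of these data known. Named were the 4 highest and 4 lowest called members of each comparison, members called in the most comparisons, stalk proteins, Rpsa, paralogue pairs and Rpl5, Rpl11, Rps6, Rps19, Rpl10 and Rpl13a. Leaving out shared values, and all alternatives for the test across peptide times, were added after seeing the data.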

Additional observations from a re-analysis of the deposited data

Results flagged for a closer look

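Of 55 groups of values of named members that were tested for an outlying array, 1 had one. Rps4l stood at -0.23 on replicate 6 of the DO11.10 over mhc -/- group, a slide 17 or 18 array, apart from the other 5 arrays, which ran from -0.37 to -0.32. Chance gives such a gap in about 1 of 20 groups.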

How the results depend on the processing

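The number of members called stayed within 1.5 times its reported value in 109 settings and moved in 37, and the member median stayed in 141 and moved in 5. Of named members, 396 values kept their direction and side of the threshold, 88 lost a call and 10 gained one. Rpl27a with HDAC7 DP changed sign, to -0.32, when set against untreated cells, but that control also brings in the effect of the stimulation.

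Calls went from 1 to 0 in MSCV_A with slide series 14 alone, series 15 alone or the unsettled arrays turned. In MSCV_B they went from 2 to 0 without the dye term and to 1 with quantile normalization or all 11 groups in one fit, and ran from 0 to 1 leaving out one array. With HDAC7-VP16 they went from 1 to 0 (all 16 empty-virus arrays, untreated cells, series 14, turned arrays) or 2 (slides of one number averaged, series 15). With PMA and ionomycin they went from 5 to 1 (series 14), 2 (all 16 arrays, series 15, turned arrays) or 3 (untreated cells, slides averaged, unsettled arrays left out, shared values left out). HDAC7 DP went from 0 to 6 against untreated cells, a contrast that also holds the stimulation. Nur77 went from 0 to 2 against untreated cells, and was at 0 to 1 leaving out one array. DO11.10 over mhc -/- went from 22 to 12 with all groups in one fit. Peptide 3 h gave 0 to 1 leaving out one array and 6 h gave 1 with slide numbering as a term. Peptide 12 h gave 2 with all groups in one fit, 3 with slide numbering as a term, 18 on slides 13 to 16, and 0 to 6 leaving out one array, where 6 is without replicate 2 and 3 without replicate 1. The test across times gave 6 without the recurring slide numbers.

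The member median moved from -0.106 to 0.007 in MSCV_B and from 0.156 to -0.049 with MEF2D-VP16 when shared values were left out. With MEF2D-VP16 it was 0.008 against all 16 empty-virus arrays and 0.035 against untreated cells, and with Nur77 -0.051 against all 16, from 0.082. The cause of these moves was not tested. Leaving out the recurring slides was not run for 3 h, where 2 arrays would be left. No paired analysis was possible because the replicate numbers are accession order and the groups compared with each other have no slide number in common. Within a group, slide series 14 and 15 repeat numbers with the same treatment and dye, and averaging them moved the calls as given above.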
